A study of Mus musculus with 67 samples.

Results

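The genes described here are 9 genes of Toll-like receptor and IL-1 signalling, Tlr4, Tlr2, Myd88, Irak4, Irak1, Irak2, Traf6, Map3k7 and Tab2. The list gives them by name, was made with earlier results of these data known, and holds 9 of the 24530 genes of the second RNA-seq experiment and 9 of the 24421 gene symbols of the pilot experiment. All 9 were found in both.

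In the second experiment, 59 libraries were made from T cells sorted from hypothalamus or brain of Foxp3GFP reporter mice, in which the Treg factor Foxp3 drives a green fluorescent protein. Of these, 29 libraries hold activated conventional T cells (CD4+CD25−Foxp3GFP−CD44hiCD62Llow, labelled act), 16 from hypothalamus and 13 from brain, and 30 hold Tregs, 16 from hypothalamus and 14 from brain. Mice were of Balb/c or C57Bl/6J background and were fed SD, the standard diet, or the HFHS diet, rich in fat and sugar, which gave 16 groups of 2 to 4 libraries. Each library of conventional T cells held the pooled cells of 5 mice per the study's methods, whose text on this experiment does not mention Tregs. Some pool labels, such as 77_80 and 11_14, do not span that many numbers, and p-values measure the spread between pools. HFHS feeding began at 6 weeks of age in female Balb/c or male C57Bl/6J mice per the methods, so that strain and sex cannot be told apart. How long they were fed, how Tregs were gated in this experiment and whether brain means the brain without the hypothalamus are not given in the sources used here. The pilot experiment holds 8 hypothalamic libraries, 1 per condition. Tregs (CD4+CD25+Foxp3GFP+) and less activated CD4+CD25−CD44low+int T cells, which the labels call naive, were pooled from 9 Foxp3GFP females on Balb/c background for each diet after 16 weeks. CD4+ T cells and CD25hi Tregs were pooled from 7 females of either genotype, ob/ob, which lack leptin, or C57Bl/6J WT.

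Toll-like receptors sense microbial products, Tlr4 lipopolysaccharide and Tlr2 bacterial lipoproteins, and share with the IL-1 receptor family an intracellular domain that recruits the adaptor Myd88. Myd88 assembles the kinases Irak4, Irak1 and Irak2, which pass the signal to the ubiquitin ligase Traf6. Traf6 activates the kinase TAK1, encoded by Map3k7, through its binding partner Tab2, and TAK1 in turn activates NF-kB and MAP kinases. The receptors are best known from microglia and macrophages in the brain, and the IL-1, IL-18 and IL-33 receptors use the same adaptor and kinases in T cells.

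Libraries of the second experiment held 1724149 to 38482277 counts, with a median of 17804184. A level of 3 counts was taken as the floor, which was 0.078 to 1.74 CPM (counts scaled to a library total of 1000000). Because PCR reads are no independent molecules, the floor and all counting intervals cover counting error alone. The 8 T-cell markers summed to 199 to 11890 CPM over the 59 libraries, and the 6 Treg markers to 346 to 684 CPM in activated conventional T cells, 2774 to 4856 CPM in brain Tregs and 73.7 to 4302 CPM in hypothalamic Tregs. Activated conventional T cells had 9372 to 14184 genes above the floor, but hypothalamic Tregs had 2366 to 10460, with a median of 4749 against 9120 in brain Tregs. Their total counts were not as far apart, with medians of 15027196 and 17377169, and the deepest of the 59 libraries, hypothalamic Treg pool 11_14 with 38482277 counts, had 5527 genes above the floor. A gene at 0 in hypothalamic Tregs cannot be told from one whose RNA did not enter the library. Among hypothalamic SD Tregs, the C57Bl/6J library of pool 11_15 had 199 CPM of T-cell markers and all 10 defining myeloid markers above the floor. It also had 4122 CPM of endothelial markers, 4 of 4 above the floor, and 213 CPM of astrocyte markers. The Balb/c library of pool 32_36 had 32310 CPM of the microglia list. That of C57Bl/6J pool 67_71 had 1742 CPM of this list, with 11 of 14 markers above the floor. In the pilot experiment, the library labelled WT CD25hi Tregs had 87.4 CPM of T-cell markers, 2 of 8 above the floor, and 48110 CPM of microglia markers, 14 of 14 above the floor.

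Starting sequences are shown for 4 members because 3 of them, Irak2, Irak4 and Myd88, were lower together in 1 comparison, and because Tlr2 holds the most matches to an NF-kB motif. They are the windows from 250 bases before to 50 after the annotated start, from RefSeq, genome build GRCm38.p6, which is the C57BL/6J reference, written 5′ to 3′ on the gene's strand with motif matches in capitals. The Irak2 window is chr6:113638217-113638516, plus strand. The Irak4 window is chr15:94543410-94543709, plus strand. That of Myd88 is chr9:119339969-119340268, minus strand, and that of Tlr2 chr3:83841559-83841858, minus strand. The windows of Irak2 and Myd88 are set on the first base of the gene on its own strand, by the coordinates given below. For Myd88, on the minus strand, this is the last coordinate. Those of Irak4 and Tlr2 are set on a start that differs from the first base of the gene.
Irak2: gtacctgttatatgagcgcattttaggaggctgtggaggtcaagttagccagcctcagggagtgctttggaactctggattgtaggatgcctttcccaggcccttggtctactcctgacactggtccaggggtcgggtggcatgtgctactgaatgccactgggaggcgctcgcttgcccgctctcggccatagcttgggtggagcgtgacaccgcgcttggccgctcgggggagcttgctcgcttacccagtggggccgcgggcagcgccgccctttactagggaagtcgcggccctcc
Irak4: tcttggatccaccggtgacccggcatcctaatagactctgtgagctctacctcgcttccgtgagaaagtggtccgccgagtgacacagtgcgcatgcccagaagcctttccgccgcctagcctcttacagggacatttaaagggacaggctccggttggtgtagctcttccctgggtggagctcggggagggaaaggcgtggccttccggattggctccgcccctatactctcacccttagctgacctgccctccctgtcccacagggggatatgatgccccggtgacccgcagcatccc
Myd88: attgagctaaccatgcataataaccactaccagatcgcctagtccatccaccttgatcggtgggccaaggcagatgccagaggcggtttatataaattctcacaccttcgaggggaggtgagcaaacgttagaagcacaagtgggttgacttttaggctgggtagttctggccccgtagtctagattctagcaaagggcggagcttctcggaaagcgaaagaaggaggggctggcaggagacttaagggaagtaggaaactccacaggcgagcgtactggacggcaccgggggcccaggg
Tlr2: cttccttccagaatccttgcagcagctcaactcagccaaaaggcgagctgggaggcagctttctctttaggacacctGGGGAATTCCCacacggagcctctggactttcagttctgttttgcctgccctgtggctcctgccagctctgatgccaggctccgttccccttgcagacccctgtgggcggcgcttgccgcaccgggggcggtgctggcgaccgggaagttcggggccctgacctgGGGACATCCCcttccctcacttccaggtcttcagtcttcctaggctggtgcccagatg
The consensus NF-kB motif was searched on both strands. The Tlr2 window held 3 matches, which begin at bases 78, 79 and 243, the first 2 overlapping, and the windows of Irak2, Irak4 and Myd88 held none. Of the 8 members in the promoter table, 3 held a match (Tlr2, Irak1 and Map3k7), against 2581 of 27025 genes (9.55%). No entry for Tlr4 was used.

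In activated conventional T cells and brain Tregs, the members fell into 2 classes by median level. In the 29 libraries of activated conventional T cells, the median TPM (a share of all transcripts that accounts for transcript length) was 46.1 for Myd88, 21.1 for Irak1, 16.6 for Tab2, 13 for Irak4, 7.68 for Map3k7, 5.38 for Traf6 and 4.92 for Irak2. It was 0.0301 for Tlr2 and 0.0174 for Tlr4. Myd88 exceeded Irak1 in 27 of 29 libraries and Irak2 exceeded Tlr2 in 26 of 29, whereas neighbours in between, such as Irak1 and Tab2 (17 of 29) or Traf6 and Irak2 (17 of 29), changed places between libraries. Tlr2 exceeded Tlr4 in 10 of 29. In the 14 libraries of brain Tregs the order was Myd88 (median of 42.2 TPM), Irak1 (23.1), Irak2 (17.8), Tab2 (15.7), Traf6 (7.09), Irak4 (4.18) and Map3k7 (2.81), and again both receptors were last by median. Map3k7 exceeded Tlr4 in 11 of 14 of them. In the 16 libraries of hypothalamic Tregs this split did not hold, with a median of 5.30 TPM for Irak1 but 0.216 for Irak2, 0.0346 for Myd88 and 0.00635 for Map3k7, beside 0 for both receptors.

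**Figure D1:**
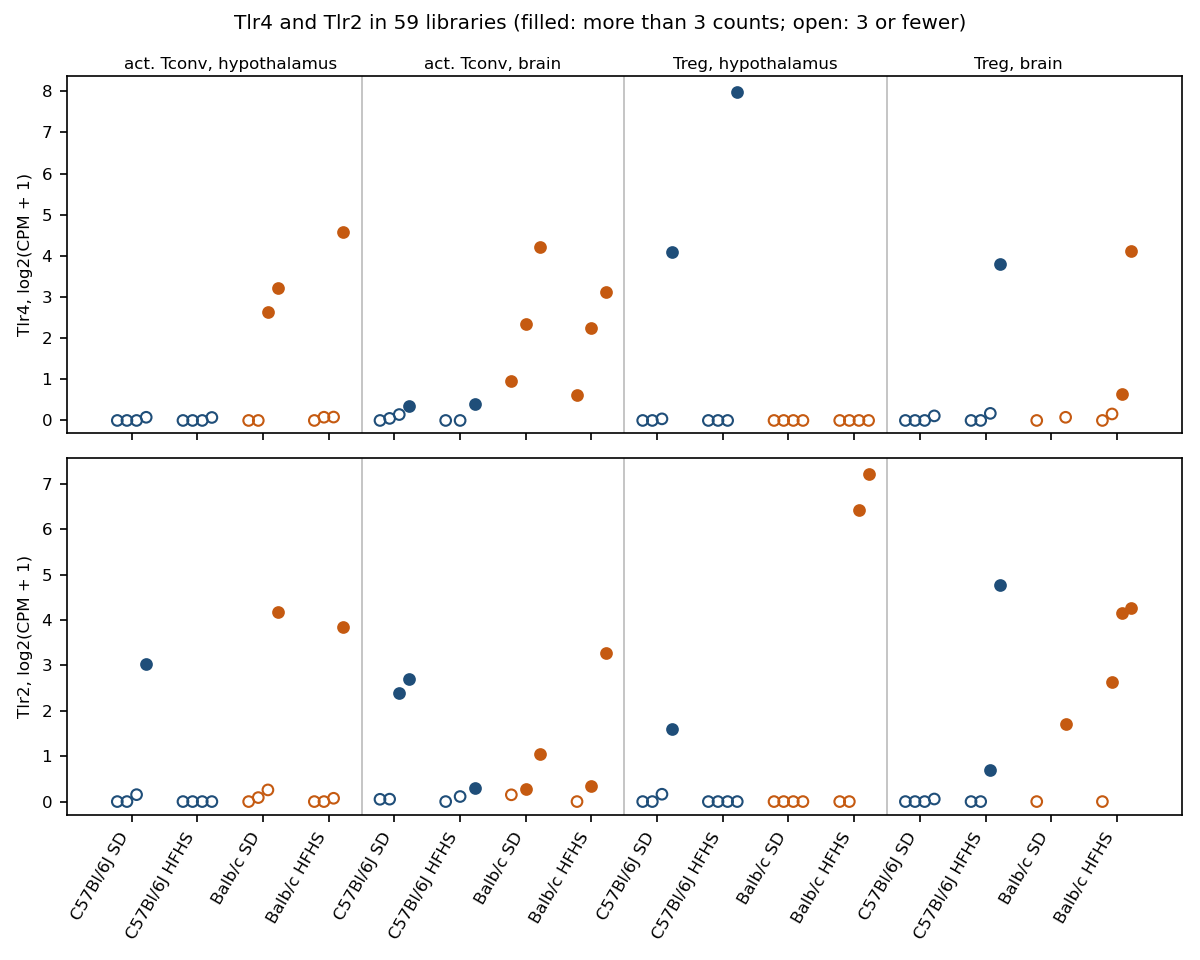
Level of Tlr4 and Tlr2 in each of the 59 libraries of the second experiment, as log2(CPM + 1), in columns by cell type, tissue, strain and diet, with 1 point per library, filled above the floor of 3 counts, blue for C57Bl/6J and orange for Balb/c. Most libraries lie at or near 0. The highest library reaches 251 CPM for Tlr4, in a group otherwise at 0, and 147 CPM for Tlr2, in a group with another at 85.7 CPM.

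Tlr4, the lipopolysaccharide receptor (chr4:66827551-66846581, GRCm38, protein coding), was above the floor in 16 of 59 libraries, 11 of 29 of activated conventional T cells and 5 of 30 of Tregs, and had no counts in 32. In hypothalamic activated conventional T cells, the Balb/c libraries of pools 26_31 (22.8 CPM), 42_46 (8.25) and 37_41 (5.22) were above the floor, and none of the 8 C57Bl/6J libraries was, with at most 1 count. In brain activated conventional T cells, all 6 Balb/c libraries were above it, with 17.7, 4.09 and 0.934 CPM on SD and 7.76, 3.72 and 0.547 on HFHS diet. Of the 7 C57Bl/6J brain libraries, 2 were, at 0.321 and 0.272 CPM. Among Tregs, C57Bl/6J pool 33_37 on HFHS diet had 251 CPM in hypothalamus, from 3757 counts, and 13 CPM in brain, and the other 6 libraries of those groups had 0 to 0.127 CPM. Balb/c HFHS pool 16_20 had 16.5 CPM and pool 15_21 had 0.574 CPM in brain. The remaining library was that of hypothalamic C57Bl/6J SD pool 11_15, at 16.0 CPM. None of the 8 hypothalamic Balb/c Treg libraries held a count of Tlr4. The labels give the same pool numbers in both tissues, and no source used here says whether these are the same mice. Tlr4 was thus carried by single pools in Tregs and by every Balb/c pool in brain activated conventional T cells.

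Myeloid cells express Tlr4 strongly, and 10 of their markers, picked from lists of 14 microglia and 12 macrophage and monocyte markers after the data were seen, were read in the same libraries (P2ry12, Tmem119, Csf1r, C1qa, C1qb, C1qc, Adgre1, Cd68, Lyz2 and Itgam). In the library with the highest Tlr4, hypothalamic Treg pool 33_37, all 10 were at 0, as they were in hypothalamic activated pool 26_31, while T-cell markers summed to 9317 and 9675 CPM. Brain Treg pools 16_20 and 33_37 had none above the floor either. Hypothalamic activated pools 42_46 and 37_41 had 1 of 10 above the floor. In brain activated Balb/c pools, 4 to 9 of the 10 were above the floor, most in pool 42_46 (9 of 10, 498 CPM in sum, P2ry12 265 CPM). Treg pool 11_15 had 10 of 10, at 4037 CPM, and also 4122 CPM of endothelial markers. In all, 4 of the 16 libraries with Tlr4 above the floor had none of these markers above it and 6 had at most 1, against 23 and 36 of the 43 other libraries. Among those other libraries, hypothalamic Balb/c SD Treg pool 32_36 had 32310 CPM of the microglia list, the highest of the 59, and 0 counts of Tlr4 and of Tlr2. Other markers of the lists were above the floor in the 4 libraries. The macrophage and monocyte list summed to 291 to 440 CPM in them, from Cybb and Ccr2 and, in 3 of them, Ly6c2, and the microglia list to 33.3 to 327 CPM, with 1 to 4 of 14 above the floor (Gpr34 in each). Over all 59 libraries, the medians of these sums were 459 and 201 CPM. B-cell markers (Cd79a or Cd79b) summed to 8.01 to 97.7 CPM in the 4 libraries, against a median of 2.07 CPM over all 59. The part of other cells in the Tlr4 levels was not tested. In bulk RNA, fewer cells with the transcript and less transcript per cell cannot be told apart.

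Tlr2, the lipoprotein receptor (chr3:83836272-83841824), was above the floor in 19 of 59 libraries, 10 of activated conventional T cells and 9 of Tregs, and had no counts in 30. Both receptors were above the floor in 9 libraries, and at least 1 of them in 26. In Balb/c HFHS Tregs, pools 16_20 and 15_21 had 147 and 85.7 CPM in hypothalamus and 16.9 and 18.3 CPM in brain, where pool 47_25 had 5.20 CPM, and pool 26_31 had none in either tissue. Balb/c SD Tregs had 0 CPM in hypothalamus in all 4 libraries and 2.25 and 0 CPM in brain. In C57Bl/6J Tregs, brain HFHS pool 77_80 had 26.4 CPM and the other 15 libraries had 0 to 2.02 CPM. In activated conventional T cells, the highest levels were 17.1 CPM (hypothalamus, Balb/c SD pool 06_10), 13.4 (hypothalamus, Balb/c HFHS pool 26_31), 8.65 (brain, Balb/c HFHS pool 16_20) and 7.22 (hypothalamus, C57Bl/6J SD pool 11_15). No group had Tlr2 in all of its libraries at more than 1 CPM.

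Neither receptor passed a test between diets, and in hypothalamic Tregs the test could not have passed. In the hypothalamus both were under the count filter, and an exact two-sided permutation test of log2(CPM + 1), with diet permuted within strains over 4900 assignments, was used. In activated conventional T cells, the difference (HFHS minus SD) was −0.14 for Tlr4 (exact p = 0.957, above the floor in 1 of 8 and 2 of 8 libraries) and −0.47 for Tlr2 (exact p = 0.453, 1 of 8 and 2 of 8). In hypothalamic Tregs it was 0.48 for Tlr4 (exact p = 1, 1 of 8 and 1 of 8) and 1.49 for Tlr2 (exact p = 0.429, 2 of 8 and 1 of 8). With so many libraries at 0, the smallest p these values allow is 0.143 for Tlr4 and 0.0918 for Tlr2 there, so that the test says nothing on diet, and 0.00612 for both in activated conventional T cells. In brain Tregs, edgeR's log2 fold change was 6.82 for Tlr4 (adjusted p = 0.496) and 5.92 for Tlr2 (adjusted p = 0.699), with most libraries at or near 0. The strain by diet interaction of Tlr2 in brain activated conventional T cells was 7.68 (adjusted p = 0.328).

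**Figure D2:**
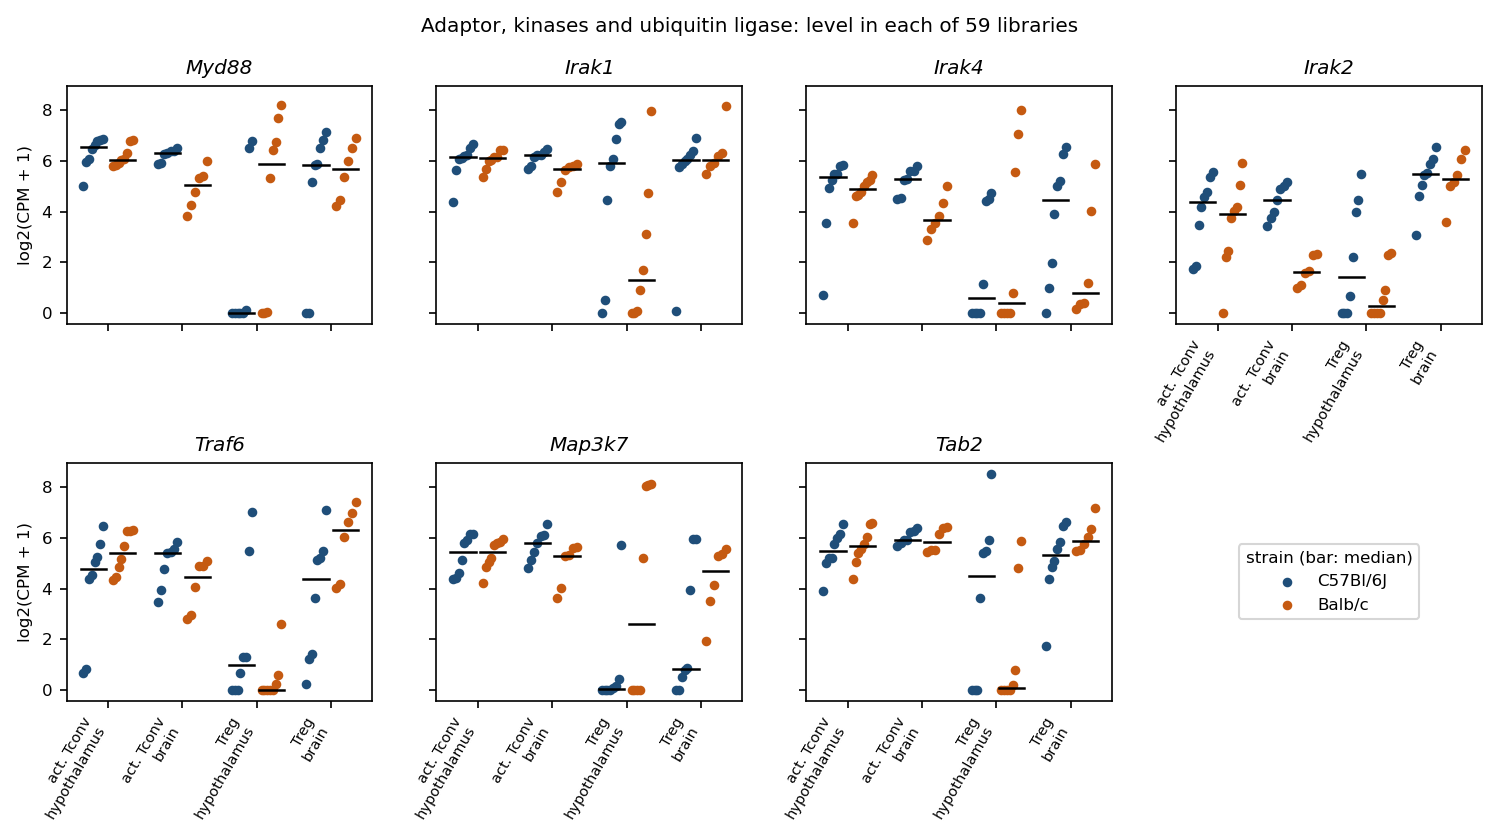
Level of Myd88, Irak4, Irak1, Irak2, Traf6, Map3k7 and Tab2 in each of the 59 libraries of the second experiment, as log2(CPM + 1), in columns by cell type and tissue, with 1 point per library, blue for C57Bl/6J and orange for Balb/c, and bars at the medians. Irak2 separates the strains in brain activated conventional T cells, while hypothalamic Tregs scatter from 0 to 371 CPM.

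The strains differed in brain activated conventional T cells. There, 4 of 9 members passed edgeR's quasi-likelihood test with Benjamini-Hochberg adjustment at 0.05, 1 higher and 3 lower in Balb/c mice, while 23.5% of the 12287 genes tested did. The median log2 fold change was −0.44 over the members and −0.03 over all genes tested. Irak2, a kinase that sustains the later signal (chr6:113638467-113695026), had 3.95, 2.13 and 1.94 CPM in Balb/c SD, 0.9849, 1.13 and 3.86 CPM in Balb/c HFHS, 14.7, 31.5, 12.6 and 35.3 CPM in C57Bl/6J SD and 9.72, 21 and 29 CPM in C57Bl/6J HFHS libraries. Every Balb/c library lay below every C57Bl/6J library. The log2 fold change was −2.93 (SE 0.58, adjusted p = 0.00109). Irak4, the kinase that starts the cascade (chr15:94543613-94568317), had 31.7, 13.1 and 19.3 CPM in Balb/c SD, 10.8, 9.06 and 6.41 in Balb/c HFHS, 48.3, 21.9, 38 and 47.1 in C57Bl/6J SD and 22.2, 37.2 and 54.3 in C57Bl/6J HFHS libraries. Only the Balb/c pool 37_41 reached into the C57Bl/6J range. Its log2 fold change was −1.16 (SE 0.36, adjusted p = 0.0249). Myd88, the adaptor (chr9:119335934-119340018), had 63.8, 41.7 and 26.5 CPM in Balb/c SD, 18.3, 39.5 and 13.2 in Balb/c HFHS, 82.6, 57.5, 58.9 and 76.6 in C57Bl/6J SD and 82.4, 89.7 and 78.6 in C57Bl/6J HFHS libraries, again with Balb/c pool 37_41 alone in the C57Bl/6J range. Its log2 fold change was −0.92 (SE 0.29, adjusted p = 0.027). Tlr4 went the other way, with a median of 3.90 CPM in Balb/c and 0.0355 CPM in C57Bl/6J libraries, no overlap, and a log2 fold change of 5.88 (SE 1.38, adjusted p = 0.00429). It passed the count filter through Balb/c libraries alone, with 10 to 201 counts there and 0 to 8 in C57Bl/6J libraries, so that a gene high in Balb/c was bound to differ and the fitted value is no measure of size.

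The other 5 members did not pass in this comparison. Log2 fold changes were −0.35 for Irak1 (adjusted p = 0.283), −0.49 for Traf6, −0.44 for Map3k7, 0.17 for Tab2 and 1.30 for Tlr2. With each library left out in turn, Irak2 passed in 13 of 13 fits, Irak4 in 10 (adjusted p up to 0.0666, without C57Bl/6J HFHS pool 33_37) and Myd88 in 9 (up to 0.0557, without C57Bl/6J HFHS pool 77_80). Without Balb/c HFHS pool 16_20, neither Irak4 nor Myd88 passed.

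Library properties moved with strain in these 13 libraries. The mean length of the transcripts that reads fell on was 2058 to 2489 bases (median 2229) in Balb/c and 2450 to 2763 (median 2554) in C57Bl/6J libraries, and the mean effective length was 814 to 1017 against 1084 to 1309 bases, while the other 53 libraries, C57Bl/6J included, had 955 to 1460. The defining myeloid markers summed to 3.95 to 498 CPM (median 17.9) in Balb/c and 0 to 16.8 CPM (median 6.03) in C57Bl/6J libraries, the microglia list to 148 to 1004 against 125 to 219 CPM, and the macrophage and monocyte list to 425 to 647 against 935 to 1586 CPM. Of the 12 macrophage and monocyte markers, 3 to 8 were above the floor in Balb/c and 3 to 5 in C57Bl/6J libraries. The 2 CD8 T-cell markers summed to 364 to 479 CPM in Balb/c SD and 276 to 333 CPM in Balb/c HFHS libraries. In C57Bl/6J libraries they summed to 34.3 to 736 CPM on SD (median 69.6) and 1.94 to 39.8 CPM on HFHS diet. The part of these properties in the strain difference was not tested.

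In the other cells, no member passed the same test between strains. None of 7 members tested passed in hypothalamic activated conventional T cells (2.1% of 10875 genes did) or in hypothalamic Tregs (0.0389% of 7715 genes), and none of 9 in brain Tregs (0.299% of 11711 genes). Counts at an unadjusted p under 0.05 were also 0. By DESeq2 there were 0, 1 (Map3k7) and 0 members. Irak2 in hypothalamic activated conventional T cells was 0 to 59.3 CPM in Balb/c and 2.35 to 47 CPM in C57Bl/6J libraries, which overlap widely. Whether the strain difference itself differed between tissues was tested after seeing these values. The strain by tissue interaction in activated conventional T cells passed for 0 of 9 members (10.4% of 12833 genes), with 2.66 for Irak2 (adjusted p = 0.126). In Tregs it passed for 1 of 9 members (8.59% of 12602 genes), Tlr4. For Tlr4 it rested on 2 hypothalamic C57Bl/6J libraries of Tregs, those of pools 33_37 and 11_15. The adjusted p by edgeR was 0.0246 with all libraries, 0.0791 without pool 11_15 and 0.465 without both.

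**Figure D3:**
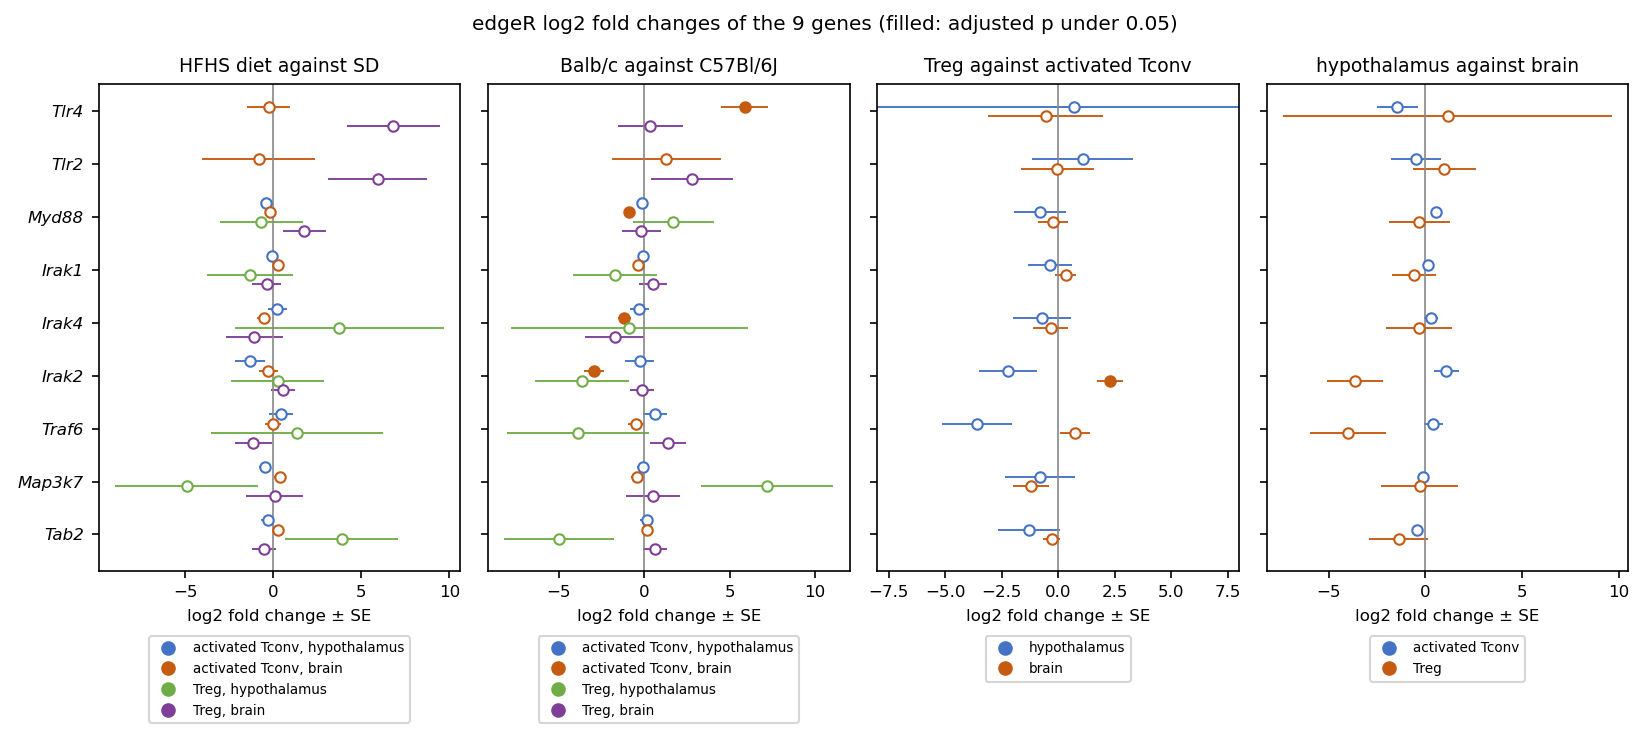
Log2 fold change of each member with its standard error in the edgeR comparisons of diet, strain, cell type and tissue, with colours for the cells or tissue compared; filled points passed an adjusted p of 0.05. The axis of the cell type panel ends at 8 in both directions, and the standard error of Tlr4 in hypothalamus runs off it. The points that passed are Tlr4, Irak2, Irak4 and Myd88 by strain in brain activated conventional T cells and Irak2 by cell type in the brain.

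Between cell types, Irak2 was the 1 member that passed. In brain, Tregs had 7.36 to 93.5 CPM of Irak2 (median 42.2, n = 14) and activated conventional T cells 0.9849 to 35.3 CPM (median 9.72, n = 13), a log2 fold change of 2.29 (SE 0.57, adjusted p = 0.00591). In Balb/c mice the ranges did not overlap, 11 to 84.5 CPM in Tregs against 0.9849 to 3.95 CPM. In C57Bl/6J mice they did, 7.36 to 93.5 against 9.72 to 35.3 CPM. The Balb/c activated libraries are those with short transcripts described above, with a mean effective length of 814 to 1017 bases against 1209 to 1336 in Balb/c brain Tregs, and its part in the Irak2 values was not tested. Thus 1 of 9 members was called, against 15% of 13956 genes, and the medians were −0.24 over the members and −0.26 over all genes. Within C57Bl/6J mice alone the log2 fold change was 1.017 (adjusted p = 0.461) and within Balb/c mice alone 3.98 (adjusted p = 0.0018). With the pool label as a replicate block it was 2.002 (adjusted p = 0.101). The strain by cell type interaction in brain, added after seeing the data, was 2.86 for Irak2 (adjusted p = 0.0539), and passed for 0 of 9 members and 4.8% of genes.

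In hypothalamus, 0 of 9 members differed between Tregs and activated conventional T cells by edgeR (7.73% of 11283 genes did; 1 member had an unadjusted p under 0.05). The median log2 fold change was −0.81 over the members and −0.60 over all genes. Myd88 was above the floor in 16 of 16 activated libraries and in 7 of 16 Treg libraries, where it ranged from 0 to 300 CPM. Map3k7, the TAK1 gene (chr4:31963492-32023470), was at 17.8 to 71 CPM in activated conventional T cells and in Tregs either at most 0.356 CPM, in 11 libraries, or at 36 to 279 CPM, in 5. Traf6, the ubiquitin ligase (chr2:101678420-101701668), reached 0.584 to 88.2 CPM in activated conventional T cells, lowest in C57Bl/6J SD pools 67_71 and 67_66 (0.584 and 0.780). It reached more than 1.5 CPM in 3 of 16 Treg libraries. In those of C57Bl/6J SD pools 11_15, 62_66 and 67_71 and Balb/c HFHS pool 11_14, Traf6 was above the floor at 0.494 to 1.43 CPM. The rest were at or under the floor. The call depended on the method. DESeq2 called 1 member (Traf6), and limma-voom with quality weights called 7 of 9, all lower in Tregs, where it called 65% of all genes. With the pool label as a block, 4 were called (Irak4, Map3k7, Tab2 and Traf6), beside 49.1% of all genes. Within Balb/c mice alone 2 were (Tlr4 and Traf6), beside 15.7%.

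Between tissues, no member passed by edgeR. In activated conventional T cells the count was 0 of 9 (16.8% of 12833 genes), with 1 member at an unadjusted p under 0.05. That was Myd88, with 31.4 to 116 CPM in hypothalamus (median 72.3) and 13.2 to 89.7 in brain (median 58.9), a log2 fold change of 0.56 (SE 0.21, adjusted p = 0.0584), and DESeq2 called it. Within C57Bl/6J mice alone 1 gene in all was called in activated conventional T cells, and within Balb/c mice alone 3454, Myd88 among them. In Tregs, 0 of 9 passed (4.93% of 12602 genes). Irak2 had a median of 0.509 CPM in hypothalamic and 42.2 CPM in brain Tregs (log2 fold change of −3.62, SE 1.46, adjusted p = 0.18), and Traf6 a median of 0.0896 against 35.1 CPM (−3.99, SE 1.97, adjusted p = 0.37). DESeq2 called both. Brain Tregs had 5950 to 10258 genes above the floor.

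Between diets, no member passed edgeR's test in the second experiment. The counts were 0 of 7 in hypothalamic activated conventional T cells (0% of 10875 genes; 406 at an unadjusted p under 0.05), 0 of 9 in brain activated conventional T cells (0% of 12287; 591), 0 of 7 in hypothalamic Tregs (0% of 7715; 213) and 0 of 9 in brain Tregs (0% of 11711; 853). At an unadjusted p under 0.05 there were 0, 0, 0 and 1 members. DESeq2 called 16, 12, 180 and 327 genes and no member. Irak2 in hypothalamic activated conventional T cells was at 15.4, 12.6, 16.9 and 59.3 CPM in Balb/c SD, 32.1, 0, 3.65 and 4.39 in Balb/c HFHS, 10.1, 40.7, 47 and 22.8 in C57Bl/6J SD and 26.5, 2.58, 17.3 and 2.35 in C57Bl/6J HFHS libraries. Its log2 fold change was −1.31 (adjusted p = 1), and the diet groups overlapped in both strains. Irak1, the kinase that follows Irak4 (chrX:74013914-74023921), was at 40.4 to 101 CPM in the SD and 20.03 to 90.8 CPM in the HFHS libraries of the same cells. Tab2, the TAK1 adaptor (chr10:7905648-7956255), was at 31.5 to 94.9 CPM on SD and 14.2 to 91.8 CPM on HFHS diet.

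Interactions with diet passed for none of the members. For strain by diet, the counts were 0 of 7 (0% of 10875 genes) and 0 of 9 (0.61% of 12287) in activated conventional T cells of hypothalamus and brain and 0 of 7 (0% of 7715) and 0 of 9 (0% of 11711) in Tregs. For tissue by diet, they were 0 of 9 in activated conventional T cells (0% of 12833) and 0 of 9 in Tregs (5.44% of 12602).

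**Figure D4:**
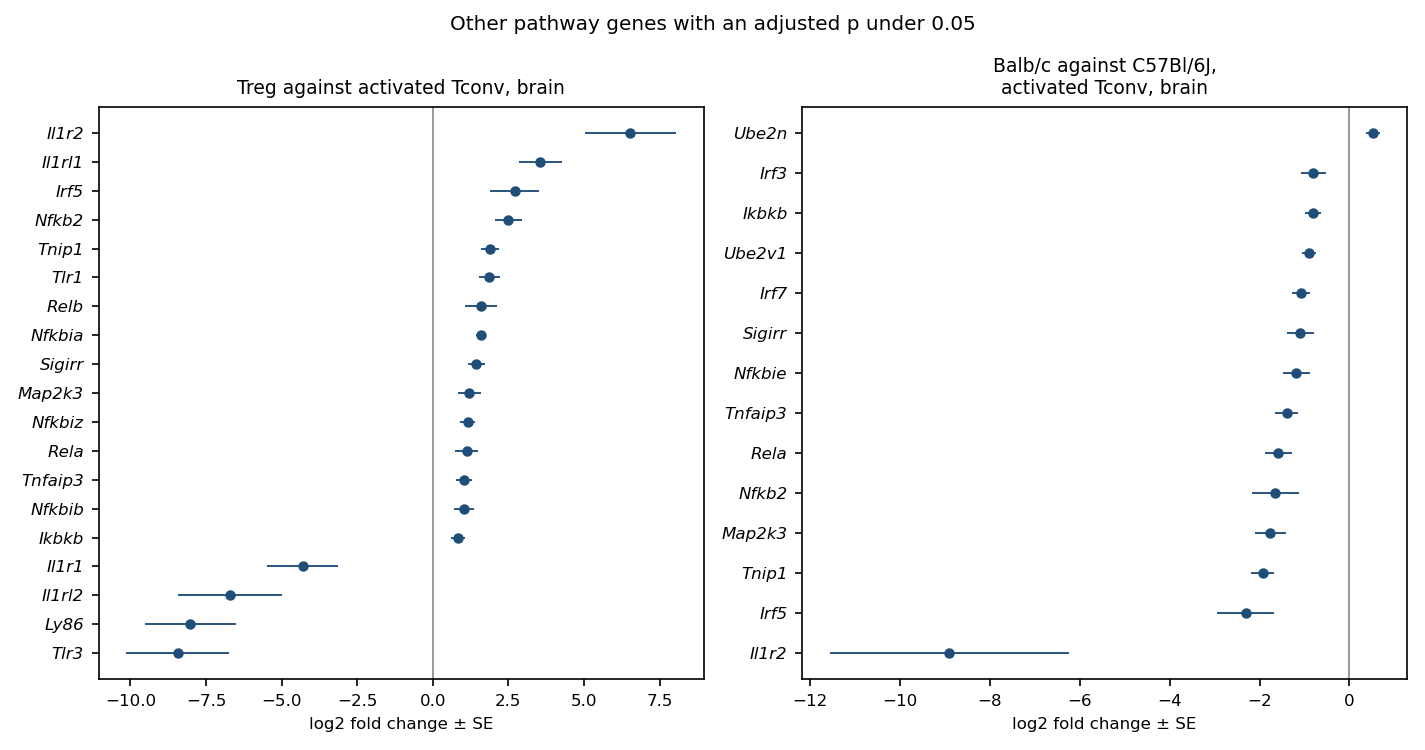
Log2 fold change with its standard error of the other pathway genes that passed an adjusted p of 0.05 in brain, 19 for Tregs against activated conventional T cells and 14 for Balb/c against C57Bl/6J activated conventional T cells, 1 point per gene. Fitted values of Tlr3 and of Il1r2 by strain, at 0 in all libraries of 1 group, are no bounds. In the first panel 15 of 19 genes lie to the right, and in the other 13 of 14 to the left.

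Of 69 other genes of the pathway, 55 were tested between strains in brain activated conventional T cells, and 14 differed by edgeR. These were 1 higher and 13 lower in Balb/c mice, beside the 23.5% of all genes. DESeq2 called 5 higher and 16 lower, and limma-trend on TPM 0 and 24. By block, the 14 edgeR calls were 8 of 15 NF-kB and IRF genes, 2 of 11 kinases and 2 of 8 IL-1 family receptors. Among adaptors and regulators, 1 of 11 was lower and 1 higher. Il1r2, the IL-1 decoy receptor, was at 0 in all 6 Balb/c libraries and in C57Bl/6J ones had a median of 0 and at most 14.1 CPM, so that it passed the count filter through a few C57Bl/6J libraries alone. Irf5, a transcription factor activated through Myd88, fell by 2.31 on the log2 scale (SE 0.64, adjusted p = 0.0129), and Tnip1, which restrains NF-kB with Tnfaip3, by 1.93 (SE 0.25, adjusted p = 4.79e-05), from 53.3 to 126 CPM in C57Bl/6J to 12.6 to 25.2 CPM in Balb/c libraries. Rela, the NF-kB subunit p65, was at 97.2 to 168 CPM in C57Bl/6J and 9.52 to 58.5 CPM in Balb/c libraries. The gene that was higher by edgeR was Ube2n, an enzyme of ubiquitin chains made by Traf6 (log2 fold change of 0.52, adjusted p = 0.0154). Limma-trend on TPM did not call it. The library properties given above moved with these genes too.

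In brain, 19 of 58 tested pathway genes differed between Tregs and activated conventional T cells, beside the 15% of all genes. Of them, 15 were higher and 4 lower in Tregs. The activated libraries compared include the Balb/c ones with short transcripts, whose part in these calls was not tested. Il1r2 rose the most by log2 fold change (6.54, SE 1.51, adjusted p = 0.00316), followed by Il1rl1, the IL-33 receptor that marks tissue Tregs (3.55, SE 0.71, adjusted p = 0.000931; 2.72 to 205 against 0 to 17.4 CPM), and Irf5 (2.71, adjusted p = 0.0194). Nfkbia, the NF-kB inhibitor, had no overlap between cell types, 449 to 1302 CPM in Tregs and 180 to 413 CPM in activated conventional T cells (log2 fold change of 1.60, SE 0.17, adjusted p = 4.31e-08). The genes that were lower were Tlr3, Ly86, Il1rl2 and Il1r1, each with a median of at most 1.25 CPM in activated conventional T cells. Of these, Tlr3, Ly86 and Il1r1 had more than 10 counts in none of the Treg libraries and passed the count filter through activated conventional T cells alone, so that their direction was fixed. With the pool label as a block, Il1rl1 (adjusted p = 0.0724), Irf5, Il1r1, Map2k3, Nfkbib, Rela and Relb did not pass, and within C57Bl/6J mice alone 3 genes did. In hypothalamus 7 of 54 tested differed, 4 higher in Tregs (Ly86, Il1rl1, Il1r2 and Nfkbia) and 3 lower (Tab3, Il1rl2 and Sarm1), beside the 7.73% of all genes. The split depended on the method, with 2 higher and 31 lower by limma-voom, 3 and 28 by limma-trend on TPM and 1 and 25 with the pool label as a block. All 3 lower genes had more than 10 counts in none of the Treg libraries, and Ly86 in none of the activated ones, so that they passed the count filter through 1 group alone and their direction was fixed. Of the higher genes, Nfkbia was above the floor in 16 of 16 Treg libraries, but Ly86 and Il1r2 in 4 of 16 each, with medians of 0 and up to 853 and 496 CPM, and Il1rl1 in 8 of 16. Ly86 was highest in Balb/c SD pool 32_36, and without this library and pool 11_15, which hold myeloid RNA, it did not pass (adjusted p = 0.222) while the other 6 did. With the pool label as a block, Il1r2, Il1rl1 and Nfkbia did not pass (adjusted p = 0.153, 0.496 and 0.0537), and none of the 4 passed within C57Bl/6J mice alone, where no pathway gene did, or within Balb/c mice alone, where 7 were lower and 0 higher. Between tissues, 11 of 56 tested differed in activated conventional T cells, 6 higher in hypothalamus (Irf5, Nfkb2, Map2k3, Rela, Nfkbib and Ikbkb) and 5 lower (Ly86, Cd14, Il1r1, Il18r1 and Ube2n), beside the 16.8% of all genes. The brain libraries compared include the Balb/c ones with short transcripts, whose part was not tested. Of the lower genes, Ly86, Cd14 and Il1r1 passed the count filter through brain libraries alone. In Tregs 2 of 54 did (4.93% of all genes), Ly86 higher and Tab3 lower, both of which passed the filter through 1 tissue alone, and Ly86 did not without pools 11_15 and 32_36 (adjusted p = 0.534). In Tregs, limma-voom called 0 higher and 25 lower and limma-trend on TPM 0 and 11. With the pool label as a block, 1 (Ikbkb) and 0 pathway genes passed between tissues, and within C57Bl/6J mice alone 0 and 0. By edgeR, diet called none in any of the 4 comparisons. In hypothalamic Tregs, DESeq2 called Ly86 and the filter on total counts called Ly86 and Tlr7, all lower on HFHS diet. In brain Tregs, DESeq2 called Map2k6, higher on HFHS diet. The tissue by diet interaction in Tregs called 4 by edgeR (Tlr7, Cd14, Il33 and Sarm1), where 5.44% of all genes were called. In hypothalamic Tregs, Tlr7 was above the floor in 3 of 16 libraries, Cd14 in 2, those of SD pools 11_15 and 32_36, Il33 in 1, that of pool 11_15, and Sarm1 in 0, so that the fitted values are no measure of size. Without these pools the interaction called 1, Sarm1 (adjusted p = 0.0485).

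The partners of the receptors were unevenly present. Tlr1, which pairs with Tlr2, was above the floor in 14 of 16 hypothalamic and 13 of 13 brain libraries of activated conventional T cells and in 14 of 14 of brain Tregs, with medians of 24.9, 36.6 and 129 CPM, and rose in brain Tregs (log2 fold change of 1.87, adjusted p = 0.000575). Tlr6, the other partner of Tlr2, was above the floor in 12 of 16, 10 of 13 and 8 of 14 of these libraries. Ly96, which binds lipopolysaccharide together with Tlr4, was above it in 13 of 16, 13 of 13 and 10 of 14. Cd14, the co-receptor of Tlr4, was above it in 0 of 16, 5 of 13 and 1 of 14. Il18r1, the IL-18 receptor, was above it in 16 of 16, 13 of 13 and 13 of 14, and Il1r1, the signalling IL-1 receptor, in 0 of 16, 8 of 13 and 1 of 14.

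Over the 59 libraries, the genes whose CPM followed a member most closely were Bag6 for Irak2 (Spearman's rho of 0.741), Pik3r1 for Traf6 (0.71), Dap for Irak4 (0.675), Pigs for Myd88 (0.638), Atmin for Map3k7 (0.637), Crebrf for Tab2 (0.632) and Tcf25 for Irak1 (0.598). They were picked among 9002 genes, and the libraries share cell type, tissue and depth.

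**Figure D5:**
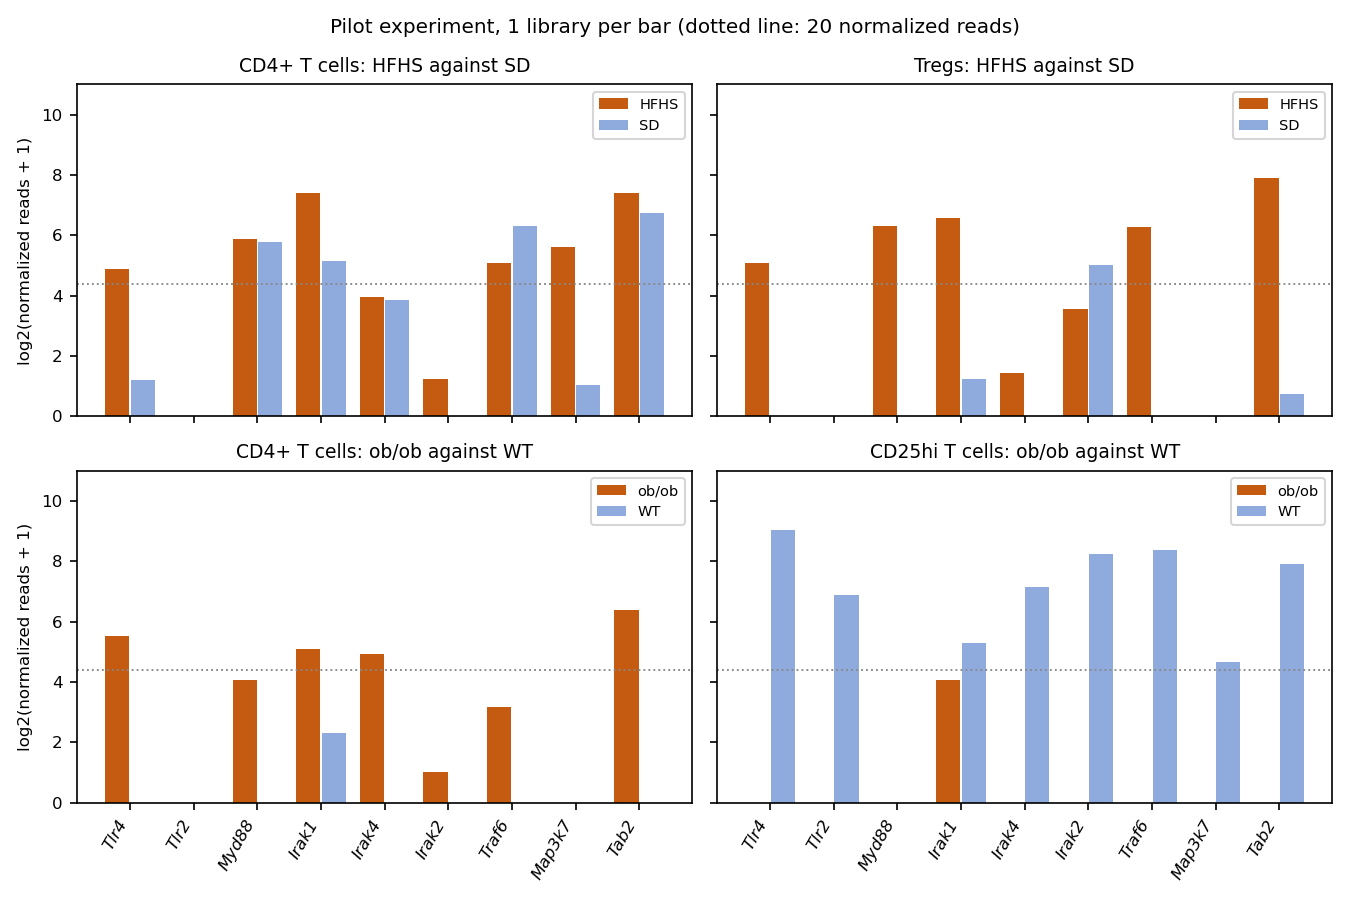
Bars from 0 show log2(normalised reads + 1) of the 9 members in the 8 pilot libraries, in 4 pairs, with 1 library per bar and no error; the dotted line marks 20 reads. Tlr4 is highest in the library labelled WT CD25hi Tregs, which also holds microglia RNA, and Tlr2 has reads only there.

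In the pilot experiment, with 1 library per condition, no test could be made and counts were set side by side after division by DESeq2 size factors. In CD4+CD25−CD44low+int T cells, 4 members were past the fold limits of 2 and 0.5 on HFHS diet with more than 20 normalised reads in 1 of the libraries, 3 higher (24.8% of 6686 genes were) and 1 lower (37% were). Tlr4 had 28.6 normalised reads on HFHS diet and 1.33 on SD, and Irak1 had 168 and 34.1 (ratio of 4.92, 95% Clopper-Pearson interval 4.02 to 6.07). Map3k7 had 48.2 and 1.07 normalised reads. Traf6 went the other way, 33.2 against 77.6 (0.427, 0.326 to 0.554), and Myd88 (57.2 and 53.6) and Tab2 (170 and 105) stayed within the limits. The macrophage and monocyte list summed to 260 CPM on HFHS diet and 76.3 CPM on SD, with 3 and 4 of 12 markers above the floor. The microglia list summed to 91.6 and 440 CPM, with 3 of 14 above it in both. The part of these lists in the values was not tested.

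In pilot Tregs, 5 members were higher on HFHS diet (48.2% of 5445 genes were) and 1 was lower (32.3% were). Myd88 had 138 counts on HFHS diet and 0 on SD (at least 38.3-fold higher against the floor of 3 counts), Traf6 133 and 0 (at least 36.9-fold higher) and Tlr4 57 and 0 (at least 15.8-fold higher). Tab2 had 415 and 1 (ratio of 345, interval 61.7 to 13678) and Irak1 165 and 2 (68.7, 18.7 to 572). Irak2 was lower, with 19 and 46 counts (0.344, 0.190 to 0.599). The macrophage and monocyte list summed to 762 CPM on HFHS diet and 125 CPM on SD, with 3 and 2 of 12 markers above the floor. The microglia list summed to 59.1 and 103 CPM, with 1 of 14 above it in both. The B-cell list summed to 0 and 222 CPM and the astrocyte list to 34 and 590 CPM. The part of these lists in the values was not tested. The SD library held at most 2 counts of every member but Irak2, from a total of 1234423 counts.

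In ob/ob against WT mice, 4 members were higher in CD4+ T cells (57.3% of 6440 genes were) and 0 lower (28.5% were). Tlr4 had 89 counts and 0 (at least 3.81-fold higher), Tab2 163 and 0 (at least 6.97-fold), Irak4 58 and 0 (at least 2.48-fold) and Irak1 65 and 1 (ratio of 8.34, interval 1.44 to 334), with 1727379 counts in all in the ob/ob and 220336 in the WT library. With TMM scaling, the bounds were 6.91-fold for Tlr4, 12.7-fold for Tab2 and 4.50-fold for Irak4. The microglia list summed to 386 CPM in the ob/ob and 0 CPM in the WT library, with 3 and 0 of 14 markers above the floor. The macrophage and monocyte list summed to 1725 and 536 CPM, with 4 and 2 of 12 above it. The part of both lists in these values was not tested. In CD25hi Tregs, 0 were higher (23.8% of 5901 genes were) and 7 lower (55.5% were). There the library labelled WT had 1045 counts of Tlr4 and 233 of Tlr2, and the ob/ob library, with 99925 counts in all, had 0 of both (at least 22.3-fold and 4.97-fold lower). Scaled to CPM, the ratios were at most 0.153 and 0.687, and that of Irak1, 0.417 by size factors, was 1.42. The library labelled WT held 48110 CPM of microglia and 87.4 CPM of T-cell markers, and the ob/ob library 90.1 and 8747 CPM, and their part in these ratios was not tested. Of the 8 pilot libraries, only that labelled WT CD25hi Tregs held a count of Tlr2.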

How the data were processed

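T cells were sorted from hypothalamus or brain and sequenced as 67 libraries. For the second experiment, the authors quantified paired-end reads with Salmon within nf-core/rnaseq on mm10, and the deposited estimated counts are not normalised between libraries; the deposited TPM values were scaled by the authors' Salmon run and were used here for levels between genes and in 1 alternative. The deposited tables list 35034 transcript names, of which 34648 (98.9%) matched a gene, and counts were summed per gene. Single-end pilot reads were mapped by the authors with BWA-mem, and HTSeq gave the raw counts per symbol that were deposited. No source used here states that counting was stranded.

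Rounded counts were tested in R 4.3.3 with edgeR 4.0.16 (TMM, quasi-likelihood test, Benjamini-Hochberg adjustment over all genes tested, 0.05), keeping genes that exceeded 10 counts in a number of libraries equal to the smallest group. Models held strain and diet as terms, one per cell type and tissue for diet and strain. The study's methods name DESeq2, which was run here as an alternative (DESeq2 1.42.0), as were its size factors, filters of more than 10 counts in total and of filterByExpr, limma-voom with quality weights (limma 3.58.1), each strain alone for diet, the pool label as a block, and leaving out each library or pool. Limma-trend on log2(TPM + 1), each strain alone for cell type and tissue, 3 interactions of strain, the omission of 2 hypothalamic Treg libraries and the alternatives for the other pathway genes were chosen after seeing the data. The fits were also run on simulated negative binomial counts, and no result given here rests on that run. Pilot counts were divided by DESeq2 size factors over all 8 libraries. Python 3.11.15 was used with pandas 2.3.3, numpy 2.4.6, scipy 1.17.1 and, for figures, matplotlib 3.10.9.

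All 9 members were named in each comparison; of 69 other pathway genes, those called were counted and up to 3 in each direction described, and the partners of the receptors, Rela, Ube2n and Nfkbia were named after their values were seen. Members and lists were chosen with earlier results of these data known. Same-numbered pools did not deviate together (correlations of −0.054 to 0.056 over 46 pairs), so the numbers were not taken to pair libraries.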

Additional observations from a re-analysis of the deposited data

Results flagged for a closer look

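Of 98 sets of 1 member in 1 group of 4 libraries, 20 had a library standing apart by Dixon's test at 95%, where chance flags about 1 in 20 for normal values. In each set with a library at the high end, the others had at most 0.613 CPM, and for such sets that rate does not apply. Tlr4 stood apart at the high end in hypothalamic C57Bl/6J HFHS Tregs (251 CPM, pool 33_37), brain C57Bl/6J HFHS Tregs (13 CPM, pool 33_37), brain Balb/c HFHS Tregs (16.5 CPM, pool 16_20), hypothalamic C57Bl/6J SD Tregs (16 CPM, pool 11_15) and hypothalamic activated Balb/c HFHS T cells (22.8 CPM, pool 26_31). Tlr2 did so in brain C57Bl/6J HFHS Tregs (26.4 CPM, pool 77_80), hypothalamic C57Bl/6J SD Tregs (2.02 CPM, pool 11_15) and 3 groups of hypothalamic activated T cells, C57Bl/6J SD (7.22 CPM, pool 11_15), Balb/c HFHS (13.4 CPM, pool 26_31) and Balb/c SD (17.1 CPM, pool 06_10).

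Downstream of the receptors, libraries stood apart at the high end for Myd88 in hypothalamic C57Bl/6J Tregs (91 CPM on HFHS diet, pool 72_76, and 109 CPM on SD, pool 67_71, which also had 1742 CPM of microglia markers), for Map3k7 in C57Bl/6J SD Tregs (61.5 CPM in brain, pool 01_05, and 51.7 CPM in hypothalamus, pool 11_15), and in hypothalamic Balb/c SD Tregs for Irak4 (0.739 CPM, pool 06_10) and Traf6 (5.09 CPM, pool 37_41). At the low end were Irak1 in brain C57Bl/6J SD Tregs (0.0598 CPM, pool 11_15, against 63.8 to 83.3 in the others) and in hypothalamic activated C57Bl/6J HFHS T cells (20 CPM, pool 33_37, against 72.9 to 90.8), Irak4 in hypothalamic activated C57Bl/6J SD T cells (0.633 CPM, pool 67_71, against 36.9 to 54.9), and Tab2 in hypothalamic C57Bl/6J SD Tregs (0 CPM, pool 43_47, against 40.9 to 59.7). Pool 43_47 was the shallowest library, with 1724149 counts.

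In Tregs, the strain difference of Tlr4 differed between tissues, with a strain by tissue interaction of −11.69 on the log2 scale (edgeR, adjusted p = 0.0246, 1 of 9 members and 8.59% of 12602 genes), a fitted value that is no bound because all 8 hypothalamic Balb/c libraries were at 0. It rested on 2 hypothalamic C57Bl/6J libraries: without pool 33_37 it was −10.46 (adjusted p = 0.0368), without pool 11_15 it was −9.27 (adjusted p = 0.0791) and without both −2.55 (adjusted p = 0.465). This interaction was added after seeing the data. Of the 2 libraries, that of pool 11_15 had 199 CPM of T-cell markers, all 10 defining myeloid markers above the floor and 4122 CPM of endothelial markers.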

How the results depend on the processing

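Among the members called, 1 direction reversed: the ratio of Irak1 in ob/ob against WT pilot Tregs was 0.417 by size factors and 1.42 by CPM. Pilot ratios within the limits also crossed 1, such as that of Myd88 between diets in CD4+ T cells (1.07 and, by CPM, 0.956). For the number of members called in the second experiment, over all comparisons of diet, strain, cell type and tissue, 264 of the alternative counts were within 1.5 times the reported count and 22 were not. An alternative of 0 for a reported 0 was taken as within, and edgeR called 0 members in most of these comparisons, so that the 264 say little on called members. Of the log2 fold changes of the members called, 91 kept their side of the threshold and 9 did not. Of the pilot ratios past the limits, 60 moved by less than their interval or 1.5 times and 24 by more. Of the counts of other pathway genes called, 71 were within 1.5 times, with 0 for 0 again taken as within, and 26 were not. For strain in brain activated conventional T cells, 2 to 4 members were called with 1 library left out (4 with all). Limma-trend on TPM called 6 there. In hypothalamic Tregs by strain, DESeq2 called 1 (Map3k7). For Tregs against activated conventional T cells in hypothalamus, where edgeR called 0, DESeq2 called 1, limma-voom 7, limma-trend on TPM 7, Balb/c mice alone 2 (Tlr4 and Traf6) and the pool label as a replicate block 4 (Irak4, Map3k7, Tab2 and Traf6). In brain, where edgeR called 1, limma-voom called 2, C57Bl/6J mice alone 0 and the replicate block 0, with Irak2 at 2.002 (adjusted p = 0.101). For hypothalamus against brain, activated conventional T cells gave 1 (Myd88) in place of 0 by DESeq2, the filter on total counts, limma-trend on TPM and Balb/c mice alone, and 0 to 1 with a pool left out. Tregs gave 2 by DESeq2, 6 by limma-voom and 3 by limma-trend on TPM in place of 0, and 0 under the replicate block. Same-numbered pools correlated best with their own number in 4 of 9, 2 of 10, 3 of 12 and 4 of 15 pairs. In the pilot experiment, more than 20 reads in both libraries left 2, 0, 0 and 0 members past the fold limits in place of 4, 6, 4 and 7, and CPM gave 4 in ob/ob Tregs. With any count taken as detection, Tlr4 was in 27 and Tlr2 in 29 libraries in place of 16 and 19. The causes were not tested. Over all genes, counts past the threshold differed from edgeR by more than 1.5 times as follows. For strain, they were 301 (DESeq2), 123 (limma-voom) and 73 (limma-trend) for 35 in brain Tregs, 250 (DESeq2), 13 (limma-voom), 11 (filter on total counts) and 0 (limma-trend) for 3 in hypothalamic Tregs, and, in activated conventional T cells, 542 for 228 in hypothalamus (DESeq2) and 4433 for 2887 in brain (limma-trend). For cell type in hypothalamus, they were 1605 (DESeq2), 1422 (filter on total counts), 543 (filterByExpr), 7329 (limma-voom), 5947 (limma-trend), 214 and 1765 (C57Bl/6J and Balb/c alone), 5543 (replicate block) and 1402 (without pools 11_15 and 32_36) for 872. For cell type in brain, they were 5265 (filter on total counts), 1134 (filterByExpr), 3492 (limma-voom) and 322 (C57Bl/6J alone) for 2094. For tissue in activated conventional T cells, they were 6990 (filter on total counts), 1310 (filterByExpr), 1 and 3454 (C57Bl/6J and Balb/c alone) and 115 (replicate block) for 2162. For tissue in Tregs, they were 1197 (DESeq2), 154 (filterByExpr), 4734 (limma-voom), 1772 (limma-trend), 0 (C57Bl/6J alone), 0 (replicate block) and 1154 (without both pools) for 621. For diet, edgeR called 0 throughout, and beside the DESeq2 counts given above, limma-voom called 1, 4 and 16 (brain activated conventional T cells, hypothalamic and brain Tregs), limma-trend 5 in brain Tregs, and the filter on total counts 39 and C57Bl/6J alone 4 in hypothalamic Tregs.

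Hypothalamic Treg libraries had few genes above the floor at total counts near those of brain Tregs, so that a 0 there cannot be told from RNA that did not enter the library. Receptor levels rest on few counts outside single libraries. Strain is confounded with sex, and in brain activated conventional T cells also with transcript length in the libraries. The pilot libraries have no replicates. Without the hypothalamic Treg libraries of pools 11_15 and 32_36, 0 members were called in 4 comparisons. These were diet and strain in hypothalamic Tregs, cell type in hypothalamus and tissue in Tregs. With all libraries edgeR also called 0 there, so that this shows no dependence on them. The interactions that these libraries enter are not part of this count.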
